A study of Homo sapiens with 6 samples.

Results

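A set of 31 genes of neurites, synapses and the neuronal cytoskeleton was followed in MCF10A cells with raised flotillins. The genes were picked by name from the 52401 genes of the deposited tables, with results of the same comparison known, so their differences between the lines are given as a description. MCF10A is an immortalised, non-tumorigenic human breast epithelial line. The MCF10AF1F2 line stably carries HA-tagged flotillin 1 and mCherry-tagged flotillin 2 from a pair of retroviral vectors and was selected with puromycin and hygromycin. The MCF10AmCherry line carries mCherry from a single retroviral vector and was selected with puromycin alone. Both lines grew in horse serum, insulin, EGF, hydrocortisone and cholera toxin, and each gave 3 polyA RNA libraries. Each group is 1 stable line with its own vectors and drugs, and the amount of flotillin, the number of vectors and the exposure to hygromycin cannot be told apart. Whether the 3 samples of a line were separate cultures is not stated, and p-values therefore cover only the spread among these samples, which could be technical.

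Neurites are held open by microtubules, which are bound and spaced by microtubule-associated proteins (MAPs), loosened by stathmins and, in axons, packed with neurofilaments. At synapses, vesicle proteins such as synaptotagmins, synaptophysin and synapsins work in transmitter release, and neurexins and neuroligins bridge the cleft to scaffolds that gather kinases such as CaMKII. Several of these genes are also active outside neurons, where MAPs and collapsin response mediators act on the cytoskeleton of migrating cells. REST, a zinc finger repressor, keeps many neuronal genes silent in epithelial cells.

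The genes of the set ranged from ample reads through low counts to few reads or none. MAP1B, DPYSL2, UCHL1 and SYN1 were 2.44- to 16.8-fold higher in MCF10AF1F2, STMN3 was 3.63-fold lower and CAMK2B 127-fold lower. The SYN1 value rests on 69 reads in MCF10AF1F2 and 21 in MCF10AmCherry. MAP2 had an 8.20-fold higher mean in MCF10AF1F2 but no p in the authors' deposited table of means. Its MCF10AF1F2 libraries were uneven, at 843, 3588 and 704 normalized counts. Of the 31 genes, 17 had a mean of at least 10 normalized counts in either line, and 14 did not. Normalized counts are reads divided by a size factor for each library. The authors' deposited table of means gives 18 of the 31 an adjusted p, and at 0.05 it calls 4 higher in MCF10AF1F2, 2 lower and 12 neither. Over all 19733 genes with an adjusted p, 11.6% were called higher and 12.0% lower, 23.6% in all. Having chosen the genes with this comparison in view, nothing is read from these shares. The median log2 fold change of the 18 genes was 0.06, against -0.04 for all genes with an adjusted p in that table. In this bulk RNA a difference in RNA per cell cannot be told apart from a difference in the number of cells that hold the transcript.

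The libraries held 17912505 to 19021596 reads in MCF10AF1F2 and 18908035 to 19439988 in MCF10AmCherry, over the genes whose reads could be recovered. Library numbers below follow falling size factor within a line, not the replicate numbers of the labels. FLOT1, an introduced gene, had 17243, 14137 and 18932 normalized counts in the MCF10AF1F2 libraries, against 1898, 1359 and 1166 in the MCF10AmCherry libraries. FLOT2, the other introduced gene, had an authors' mean of 41052 in MCF10AF1F2 and 3727 in MCF10AmCherry. REST stood at 1429 ± 117 normalized counts in MCF10AF1F2 and 1097 ± 117 in MCF10AmCherry (SD, n = 3 each), and the groups do not overlap (authors' deposited adjusted p = 0.204). Its partner RCOR1, a corepressor scaffold, had 2137 ± 200 in MCF10AF1F2 and 1534 ± 325 in MCF10AmCherry (SD, n = 3 each), again without overlap and without a call (adjusted p = 0.165).

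**Figure D1:**
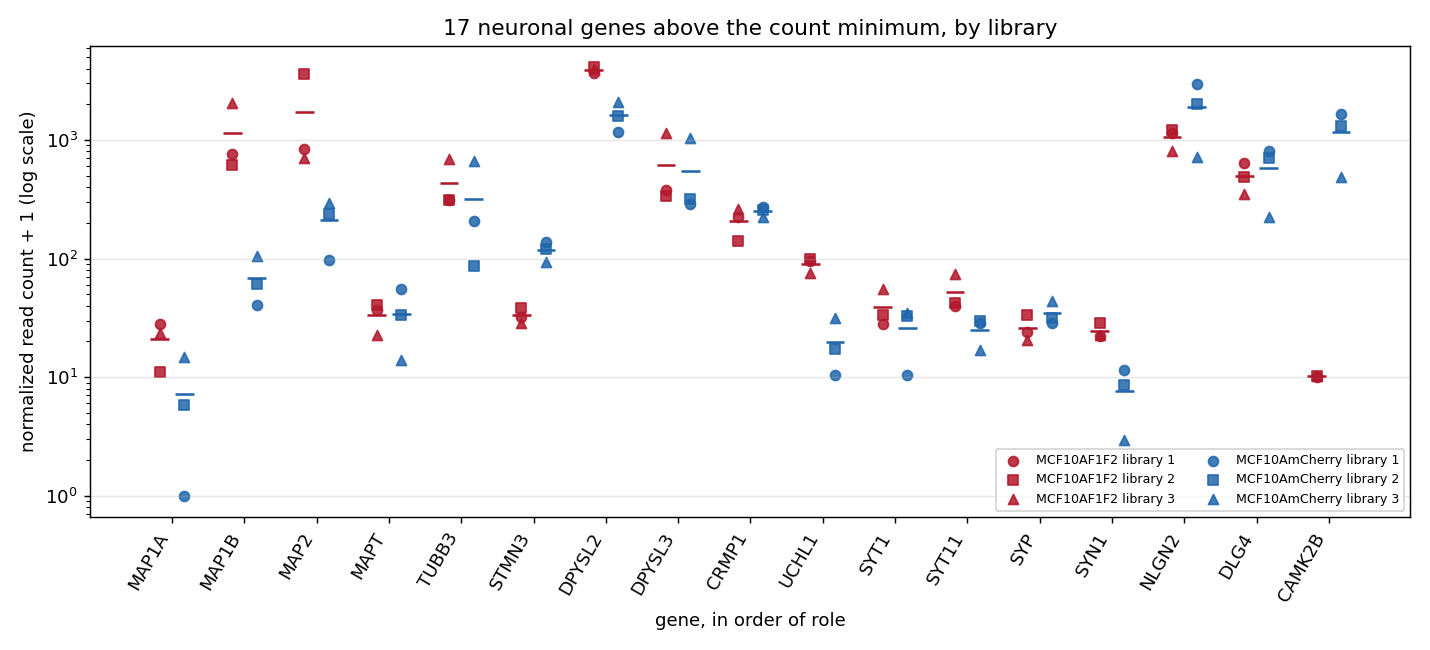
Normalized read count + 1 on a log axis for the 17 genes with a mean of at least 10 in either line. Each point is 1 library, the short line is the group mean, red is MCF10AF1F2 and blue MCF10AmCherry. The 3 CAMK2B points of MCF10AF1F2 lie together near 9 counts, below every MCF10AmCherry point, and those of MAP1B, MAP2, DPYSL2 and UCHL1 lie above theirs.

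Among the microtubule-associated genes, MAP1B was the one with the largest rise. MAP1B encodes the heavy and light chains of a MAP of growing axons and lies on chromosome 5 (71403061 to 71505395, GRCh37). It had 755, 610.0 and 2058 normalized counts in MCF10AF1F2, against 39.8, 60.3 and 104 in MCF10AmCherry. The groups do not overlap, and library 3 was the highest of its line in both. The group means differed 16.8-fold. For every gene of the set with reads in both lines, the authors' deposited log2 fold change was smaller in size than the log2 ratio of the means. The log2 fold change was 3.61 in the authors' deposited table of means (adjusted p = 5.92e-13) and 3.94 ± 0.52 (SE) in a limma fit of log2(normalized count + 1) over 15839 genes (adjusted p = 0.00383). MAP1B ranked 22 among the rises of that deposited table by log2 fold change.

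MAP2 encodes the main MAP of dendrites and lies on chromosome 2 (210288782 to 210598842). It had 843, 3588 and 704 normalized counts in MCF10AF1F2, against 96.8, 237 and 292 in MCF10AmCherry. Every MCF10AF1F2 library lay above every MCF10AmCherry library, but library 2 of MCF10AF1F2 was more than 4 times the others of its line. The authors' deposited table of means lists MAP2 at a log2 fold change of 2.58 and gives neither a p nor an adjusted p. In the authors' Tuxedo table its log2 fold change was 2.61 (q = 0.000804), and limma gave 2.76 ± 0.69 (SE, adjusted p = 0.0313). Of 6 limma fits that left out 1 library, 2 passed, with adjusted p-values of 0.0301 to 0.0765. The limma value was 2.02 without library 2 of MCF10AF1F2 (adjusted p = 0.059) and 3.51 without library 3 of both lines (adjusted p = 0.105).

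MAPT, the gene of tau, and MAP1A, a MAP of mature neurons, were low. MAPT had 36.0, 39.5 and 21.6 normalized counts in MCF10AF1F2, against 54.1, 32.5 and 12.8 in MCF10AmCherry, with overlapping groups (authors' deposited adjusted p = 0.973). MAP1A had 27.0, 10.1 and 22.6 in MCF10AF1F2, against 0, 4.78 and 13.8 in MCF10AmCherry, where library 3 reached into the MCF10AF1F2 range. Its adjusted p was 0.187 in the authors' deposited table, and in limma 0.134 with all libraries and 0.0264 without library 3 of MCF10AmCherry. DCX, the doublecortin gene of migrating young neurons, had 4 reads in each line.

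Per transcript length, the MAPs of this set were minor beside the ubiquitous MAP4, which had an authors' FPKM of 83.5 in MCF10AF1F2 and 65.3 in MCF10AmCherry. MAP2 had 14.2 FPKM in MCF10AF1F2 and 2.33 in MCF10AmCherry, and MAP1B 3.46 and 0.232 in the same order of lines. Of the summed FPKM of 6 structural MAP genes, MAP2 held 13.5% in MCF10AF1F2 and 3.34% in MCF10AmCherry. These shares use group values, and the MAP2 libraries of MCF10AF1F2 were uneven, at 843, 3588 and 704 normalized counts.

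The tubulin and stathmin genes did not move together. TUBB3, the class III beta-tubulin gene used as a neuronal marker, had 308, 310.1 and 690 normalized counts in MCF10AF1F2, against 205, 86.1 and 665 in MCF10AmCherry. Library 3 was far above the others in both lines and the groups overlap (authors' deposited adjusted p = 0.650). Limma called TUBB3 higher without library 3 of both lines (log2 fold change 1.21, adjusted p = 0.0386) and without library 3 of MCF10AmCherry alone (1.60, adjusted p = 0.0412). The identifier of this row is listed in GENCODE 29 as a gene of its own that shares exon bases on the same strand with both TUBB3 (57.1% of its own) and MC1R (42.9%), so its reads may include MC1R. STMN3, a microtubule-destabilising stathmin of neurons (chromosome 20, 62271061 to 62284780), had 31, 37.5 and 27.8 normalized counts in MCF10AF1F2, against 136, 121 and 92.8 in MCF10AmCherry. All 3 MCF10AF1F2 libraries lay below all MCF10AmCherry libraries, and STMN3 was 3.63-fold lower (authors' deposited log2 fold change -1.76, adjusted p = 3.26e-06). Limma gave -1.82 ± 0.29 (SE, adjusted p = 0.00669). STMN2, a growth cone stathmin, had 0 reads in all 6 libraries. The ubiquitous paralog STMN1 was the main stathmin, at an authors' FPKM of 224 in MCF10AF1F2 and 105 in MCF10AmCherry. STMN3 had 0.637 and 2.50 in the same order. The STMN1 groups overlap, with library 3 the highest of its line in both, at 7591 normalized counts in MCF10AF1F2 and 4158 in MCF10AmCherry. STMN1 was not called in the authors' deposited table of means (adjusted p = 0.279), but was called higher in the authors' Tuxedo table (q = 0.0264).

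**Figure D2:**
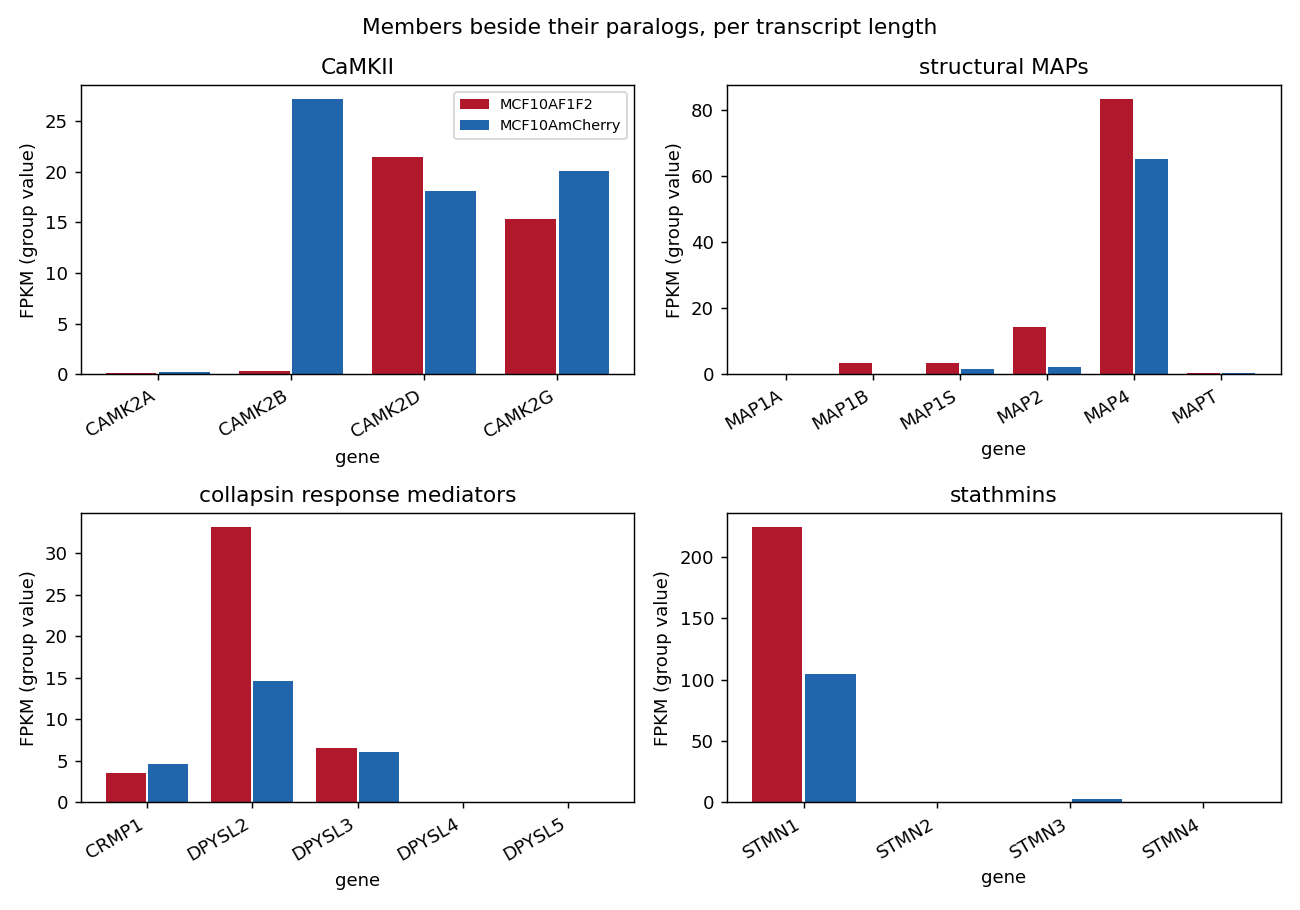
Authors' group FPKM of genes of the set beside their paralogs, MCF10AF1F2 in red and left, MCF10AmCherry in blue and right, on linear axes from 0, with no error since the deposited values are 1 per line. CAMK2B stands at 0.280 in MCF10AF1F2 and 27.2 in MCF10AmCherry, while MAP4 and STMN1 are the highest of their panels in both lines.

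Of the growth cone genes, DPYSL2 differed between the lines. It encodes a collapsin response mediator (CRMP2) that binds tubulin and relays semaphorin signals, and lies on chromosome 8 (26371791 to 26515694). DPYSL2 had 3698, 4100 and 3982 normalized counts in MCF10AF1F2, against 1157, 1592 and 2077 in MCF10AmCherry. The groups do not overlap, and MCF10AF1F2 varied less than MCF10AmCherry. The means differed 2.44-fold (authors' deposited log2 fold change 1.24, adjusted p = 0.000112), and limma gave 1.33 ± 0.23 (SE, adjusted p = 0.0092).

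Its paralogs DPYSL3 and CRMP1 gave no call. DPYSL3 had 380.0, 333 and 1147 normalized counts in MCF10AF1F2, against 287, 318 and 1031 in MCF10AmCherry. Library 3 stood at 3.22 times the mean of the other libraries in MCF10AF1F2 and 3.40 times in MCF10AmCherry, and the group ranges were nearly the same (adjusted p = 0.855). CRMP1 had 224, 139 and 259 in MCF10AF1F2, against 271, 258 and 223 in MCF10AmCherry (adjusted p = 0.570). DPYSL4 had 2 reads in MCF10AF1F2 and 1 in MCF10AmCherry, and GAP43, the growth-associated protein gene of regenerating axons, had 1 and 0. Per length, DPYSL2 held 76.6% of the summed FPKM of 5 family genes in MCF10AF1F2 and 57.7% in MCF10AmCherry.

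Neurofilament genes were at or near 0 in both lines. NEFM had 0 reads in all libraries, NEFL had 2 reads in MCF10AF1F2 and 1 in MCF10AmCherry, NEFH 4 and 2, and INA, the internexin gene, 1 and 0. Over the 113001327 recovered reads of all 6 libraries, a count of 0 allows up to 3 reads, or 0.0265 CPM over the pooled libraries. This limit covers counting error only. SNAP25, a neuronal SNARE gene, was likewise at 0 in all libraries. The 14 genes below a mean of 10 had 37 reads in all in MCF10AF1F2 and 85 in MCF10AmCherry, at most 14 for 1 gene (CAMK2A) in MCF10AF1F2 and 30 (KIF5A) in MCF10AmCherry. KIF5A, a neuronal kinesin 1 heavy chain gene, had 0, 3 and 3 reads in MCF10AF1F2, against 8, 9 and 13 in MCF10AmCherry. It was not called (authors' deposited adjusted p = 0.0841).

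UCHL1, a deubiquitinating enzyme abundant in neurons (chromosome 4, 41222091 to 41270472), rose 4.73-fold. It had 94.0, 98.3 and 74.0 normalized counts in MCF10AF1F2, against 9.49, 16.3 and 30.6 in MCF10AmCherry. The lowest MCF10AF1F2 library lay at more than double the highest MCF10AmCherry library. The authors' deposited log2 fold change was 2.04 (adjusted p = 3.54e-05), and limma gave 2.32 ± 0.44 (SE, adjusted p = 0.012). Without library 1 or library 2 of MCF10AF1F2 the limma adjusted p was 0.0563 and 0.0586.

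Synaptic vesicle genes were expressed at low levels. Of 4 with an adjusted p in the authors' deposited table, 1 was called, where 23.6% of all genes were. SYN1, the gene of synapsin I, which tethers synaptic vesicles (chromosome X, locus 47420516 to 47479252), had 21.0, 27.4 and 21.6 normalized counts in MCF10AF1F2, against 10.4, 7.65 and 1.97 in MCF10AmCherry. These are 69 reads in MCF10AF1F2 and 21 in MCF10AmCherry, with no overlap between the groups. The authors' deposited table of means calls SYN1 higher (log2 fold change 1.5, adjusted p = 0.0311), and limma gave 1.86 ± 0.56 (SE, adjusted p = 0.0486). The call did not hold in limma at a pseudocount of 0.5 (adjusted p = 0.0524), with libraries scaled by their recovered reads (0.0568), or in 5 of 6 fits that left out 1 library, which spanned adjusted p-values of 0.0372 to 0.153. The locus also holds TIMP1, a protease inhibitor gene with authors' means of 49825 normalized counts in MCF10AF1F2 and 15511 in MCF10AmCherry. In GENCODE 29, SYN1 shares 23 exon bases with ARAF on the opposite strand and 297, or 9.0% of its own, with AL009172.2 on the same strand, and none with TIMP1.

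SYT11, SYT1 and SYP gave no call. SYT11, an atypical synaptotagmin of vesicle recycling, had 39.0, 41.5 and 73.0 normalized counts in MCF10AF1F2, against 27.5, 28.7 and 15.8 in MCF10AmCherry. The SYT11 groups do not overlap, and the authors' deposited adjusted p was 0.0736. SYT1, the calcium sensor of fast transmitter release, had 27.0, 32.4 and 54.5 in MCF10AF1F2, against 9.49, 31.6 and 33.6 in MCF10AmCherry, with overlap (adjusted p = 0.468). SYP, synaptophysin, a membrane protein of synaptic vesicles, had 23.0, 32.4 and 19.5 in MCF10AF1F2, against 27.5, 30.6 and 42.5 in MCF10AmCherry (adjusted p = 0.534).

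CAMK2B was the largest difference of the set. It encodes the beta subunit of CaMKII, the calcium and calmodulin kinase of synaptic plasticity, whose beta subunit also binds actin (chromosome 7, 44256749 to 44374176). CAMK2B had 9.0, 9.12 and 9.25 normalized counts in MCF10AF1F2, which are 9 reads in each library, against 1669, 1312 and 488 in MCF10AmCherry. The groups are far apart, and library 3 of MCF10AmCherry was the lowest of its line. The authors' deposited log2 fold change of -6.20 (adjusted p = 4.01e-40) ranked 9 among all falls, and limma gave -6.66 ± 0.45 (SE, adjusted p = 0.000266). Leaving out any 1 library kept the limma log2 fold change between -7.19 and -6.31.

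No other CaMKII gene was called in the authors' deposited table of means. Per length, CAMK2B had an authors' FPKM of 0.280 in MCF10AF1F2 and 27.2 in MCF10AmCherry. CAMK2D had 21.5 in MCF10AF1F2 and 18.1 in MCF10AmCherry, and CAMK2G 15.4 and 20.1 in the same order. CAMK2B thus held 0.753% of the summed CaMKII FPKM in MCF10AF1F2 and 41.5% in MCF10AmCherry. In that table the adjusted p was 0.482 for CAMK2D and 0.656 for CAMK2G. CAMK2A, the alpha subunit gene of forebrain neurons, had 14 reads in MCF10AF1F2 and 22 in MCF10AmCherry.

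Synaptic adhesion and scaffold genes were expressed unevenly. NLGN2, the neuroligin of inhibitory synapses (chromosome 17, 7311502 to 7323179), had 1154, 1208 and 814 normalized counts in MCF10AF1F2, against 2955, 2022 and 722 in MCF10AmCherry. Library 3 of MCF10AmCherry lay below all MCF10AF1F2 libraries, while the other 2 lay above them. NLGN2 was not called in the authors' deposited table of means (adjusted p = 0.184), but was called lower in the authors' Tuxedo table (log2 fold change -0.96, q = 0.00467). Without library 3 of MCF10AmCherry, limma gave -1.23 with an adjusted p of 0.00921. DLG4, the gene of the postsynaptic scaffold PSD-95, had 644, 483 and 349 in MCF10AF1F2, against 814, 711 and 221 in MCF10AmCherry (adjusted p = 0.754). DLG4 shares its locus with ACADVL, an abundant mitochondrial gene on the opposite strand with 85 exon bases in common, and no source used here states whether counting used strand. NRXN2, a neurexin gene, had 1 read in each line. NRXN3, another neurexin gene, had 1 read in MCF10AF1F2 and 13 in MCF10AmCherry, and NLGN1, the neuroligin of excitatory synapses, 1 and 11. Neither NRXN3 nor NLGN1 has an adjusted p in the authors' deposited table.

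**Figure D3:**
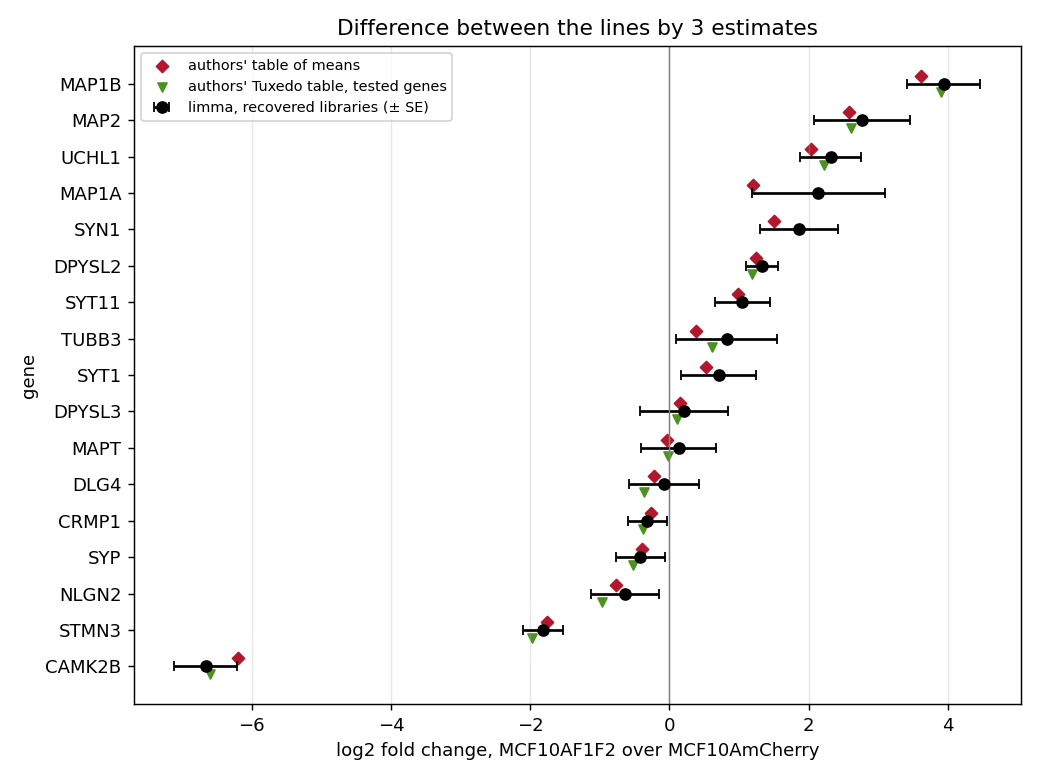
Log2 fold change of MCF10AF1F2 over MCF10AmCherry for the 17 genes above the count minimum. Black points are limma values with standard errors over 3 libraries per line, red diamonds the authors' table of means, and green triangles the authors' Tuxedo values for genes it tested. The plotted estimates of a gene (3, or 2 for MAP1A, SYT1, SYT11 and SYN1) lie on the same side of 0 for all but MAPT, from -6.66 for CAMK2B to 3.94 for MAP1B in limma.

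Between the groups, 6 of the 17 genes above the count minimum had all MCF10AF1F2 libraries above all MCF10AmCherry libraries and 2 had all below. Over the 16508 genes with such a mean, these shares were 23.8% and 21.5%. Spread within a line was wide. The median coefficient of variation of the 17 genes was 29.8% in MCF10AF1F2 and 53.7% in MCF10AmCherry, and it reached 95.0% for MAP2 in MCF10AF1F2 and 113% for MAP1A in MCF10AmCherry. Library 3 was the highest library of both lines for MAP1B, TUBB3, DPYSL3 and SYT1, 4 of the 17, and the lowest of both for MAPT, STMN3, NLGN2 and DLG4, another 4. Over the 16508 genes these patterns held for 27.4% and 24.6%, so they were not confined to genes of the set. The count of called genes moved with the libraries used. The authors' Tuxedo table called 4 genes higher (MAP1B, MAP2, DPYSL2 and UCHL1) and 3 lower (STMN3, NLGN2 and CAMK2B) of the 13 it tested, where 6.93% and 10.0% of all genes it tested passed, 16.9% in all. Limma called 5 higher and 2 lower of 17, against 12.1% and 11.1% of all 15839 genes, and 3 higher and 1 lower of 9 at a mean of at least 100, where 26.4% of genes passed. Without library 1 or library 2 of MCF10AF1F2 it called 2 higher and 2 lower, with 6.19% and 7.06% of all genes passing. It called 7 higher and 3 lower without library 3 of MCF10AmCherry, where 40.1% of genes passed, and 6 higher and 3 lower without library 3 of both lines, where 44.1% passed.

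**Figure D4:**
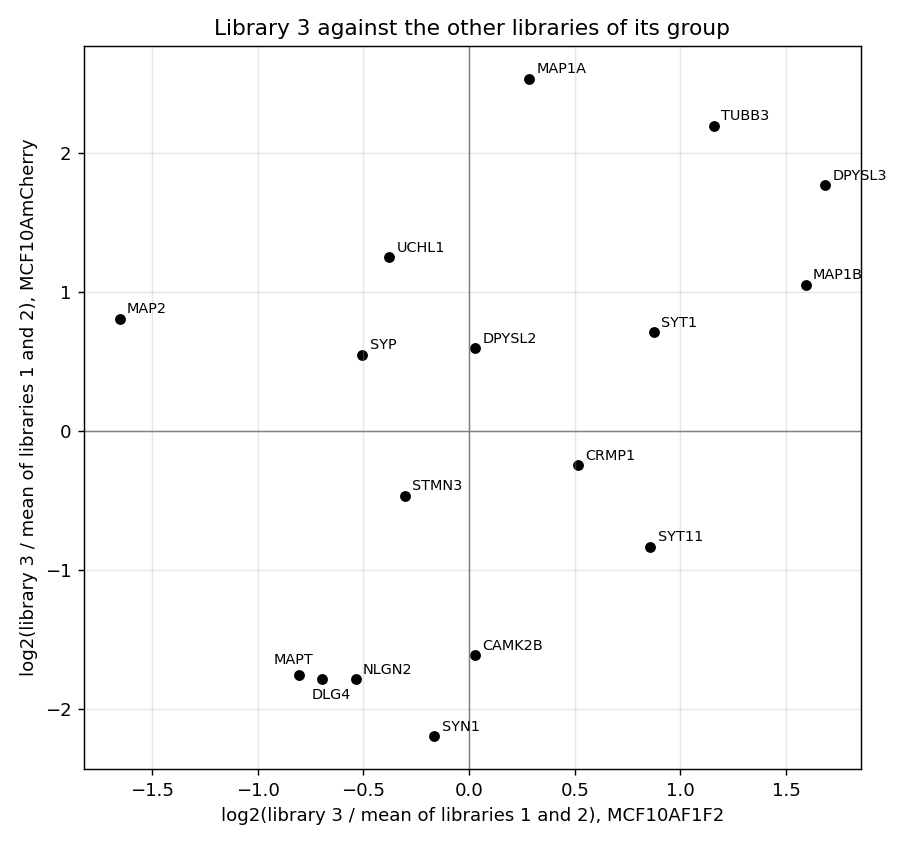
Log2 ratio of library 3 to the mean of libraries 1 and 2, in MCF10AF1F2 (x axis) and MCF10AmCherry (y axis), 1 point per gene for the 17 genes. DPYSL3, MAP1B and TUBB3 lie at the upper right, with ratios of 3.22, 3.02 and 2.23 in MCF10AF1F2 and 3.40, 2.07 and 4.57 in MCF10AmCherry, and MAPT, DLG4 and NLGN2 at the lower left.

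Promoter sequence is shown for the called genes with a RefSeq entry whose window holds one of 3 motifs, as the 250 bases before a transcription start (GRCh38.p14), 5′ to 3′ on the strand of the gene. In all, 22 of the 31 genes matched, with 40 starts. Capitals mark CAGGTG (the E-box that ZEB repressors bind), the core of the RE1 element that REST binds or TATAAA (the TATA box), each on either strand. The windows below are chr7:44325595-44325844 (minus strand), chrX:47619858-47620107 (minus strand), chr5:72179537-72179786 (plus strand) and chr4:41256678-41256927 (plus strand).
CAMK2B: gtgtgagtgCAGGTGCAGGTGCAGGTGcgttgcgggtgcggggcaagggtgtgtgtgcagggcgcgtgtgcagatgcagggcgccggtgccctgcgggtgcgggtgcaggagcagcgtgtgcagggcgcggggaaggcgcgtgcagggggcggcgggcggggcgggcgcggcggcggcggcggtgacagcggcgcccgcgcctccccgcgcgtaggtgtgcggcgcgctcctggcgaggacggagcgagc
SYN1: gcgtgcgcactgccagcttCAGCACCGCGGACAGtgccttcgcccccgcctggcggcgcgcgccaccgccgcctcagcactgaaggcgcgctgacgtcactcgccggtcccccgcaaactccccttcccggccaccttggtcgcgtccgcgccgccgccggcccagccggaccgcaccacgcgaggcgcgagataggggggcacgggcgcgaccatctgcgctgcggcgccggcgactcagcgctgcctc
MAP1B: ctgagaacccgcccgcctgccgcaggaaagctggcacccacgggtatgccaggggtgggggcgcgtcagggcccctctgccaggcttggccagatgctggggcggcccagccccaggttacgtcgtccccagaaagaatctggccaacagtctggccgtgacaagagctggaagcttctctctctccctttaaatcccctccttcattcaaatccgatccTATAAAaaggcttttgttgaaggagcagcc
UCHL1: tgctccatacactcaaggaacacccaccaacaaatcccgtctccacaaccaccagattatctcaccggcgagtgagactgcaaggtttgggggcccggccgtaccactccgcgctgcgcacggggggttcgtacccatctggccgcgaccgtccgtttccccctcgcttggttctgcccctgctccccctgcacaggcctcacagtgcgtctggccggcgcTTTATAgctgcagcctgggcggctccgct

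The CAMK2B window holds CAGGTG 3 times in a row, starting 241, 235 and 229 bases before the start. Of 35116 promoter windows of this length, 17.5% hold the motif and 0.464% hold it at least 3 times. It is also in windows of MAP1A, SYT11, CAMK2A and DCX. MAP1A and SYT11 had higher means in MCF10AF1F2, 3.21- and 2.13-fold, without a call (authors' deposited adjusted p = 0.187 and 0.0736). CAMK2A had 14 reads in MCF10AF1F2 and 22 in MCF10AmCherry, and DCX 4 in each line. ZEB1 had 909 ± 208 normalized counts in MCF10AF1F2 and 156 ± 22.8 in MCF10AmCherry, and ZEB2 749 ± 115 and 151 ± 19.0 (SD, n = 3 each). The RE1 core is in SYN1 among these genes, 231 bases before its start, and in 0.0456% of all windows. TATAAA is in 10.7% of windows. It lies 30 bases before the MAP1B start printed above, a downstream start, and, on the opposite strand, 29 bases before the UCHL1 start. The upstream MAP1B start (window chr5:72107225-72107474, not printed) has TATAAA 172 bases before it. The STMN3 window held none of the 3 motifs. A match of letters is a description, and binding was not measured.

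Other genes of neurites and synapses, in lists that hold none of the 31, moved in both directions. Of 23 tested genes of microtubule proteins and motors, 3 rose and 2 fell (median log2 fold change 0.55), against 11.6% and 12.0% of all genes. DCLK1, a doublecortin-like kinase, had 120 ± 46.9 normalized counts in MCF10AF1F2 and 13.5 ± 2.92 in MCF10AmCherry, and TUBA1A, an alpha-tubulin of neurons, 609 ± 247 and 194 ± 140 (SD, n = 3 each). The Tuxedo table did not call DCLK1 (q = 0.224). MAP7, an epithelial MAP, had 184 ± 62.7 in MCF10AF1F2 and 792 ± 280 in MCF10AmCherry (SD, n = 3 each). KIF21B, a kinesin gene, fell too, with 18.7 ± 16.0 in MCF10AF1F2 and 76.1 ± 26.1 in MCF10AmCherry (SD, n = 3 each). Of 14 growth cone and axon guidance genes, 4 rose and 3 fell (median 0.00). ABLIM3, an actin-binding LIM protein gene, had an authors' mean of 23449 in MCF10AF1F2 and 8494 in MCF10AmCherry. L1CAM, an axonal adhesion gene, had 160.4 ± 71.0 in MCF10AF1F2 and 474 ± 417 in MCF10AmCherry (SD, n = 3 each), where library 3 stood at 956 and the others averaged 233. Its groups overlap, and its fall was not called by limma (adjusted p = 0.144) or the authors' Tuxedo table (q = 0.409). CAP2, an actin regulator, stood at 846 ± 209 in MCF10AF1F2 and 296 ± 45.5 in MCF10AmCherry, and NFASC, neurofascin, at 2.69 ± 1.52 and 127 ± 55.2 (SD, n = 3 each).

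Of 45 tested synaptic vesicle and SNARE genes, 5 rose and 11 fell (median -0.29), against 11.6% and 12.0% of all genes. The authors' Tuxedo table called 0 rises and 7 falls among 32 of them, and limma 5 rises and 7 falls among 39. Of all genes, the Tuxedo table called 6.93% higher and 10.0% lower, and limma 12.1% and 11.1%. NSF, the ATPase that takes SNARE complexes apart, had 1801 ± 142 normalized counts in MCF10AF1F2 and 686 ± 214 in MCF10AmCherry, and VAMP3, a SNARE of recycling endosomes, 3673 ± 298 and 1416 ± 248 (SD, n = 3 each). SYT8, a synaptotagmin found in epithelia, had 572 ± 296 in MCF10AF1F2 and 7799 ± 4554 in MCF10AmCherry (SD, n = 3 each). SYN3, synapsin III, had 3.72 ± 1.17 in MCF10AF1F2 and 151 ± 85.1 in MCF10AmCherry (SD, n = 3 each); it shares its locus with TIMP3, which also fell (authors' deposited log2 fold change -1.85), and the Tuxedo table did not call SYN3 (q = 0.285). Synaptic adhesion and scaffold genes gave 1 rise (SYNPO, synaptopodin) and 1 fall (HOMER2, a postsynaptic scaffold) among 18. The Tuxedo table did not call SYNPO (q = 0.136). Calmodulin kinase genes gave 1 rise (CAMK1) among 9, which neither limma (adjusted p = 0.0566) nor the Tuxedo table (q = 0.886) called. Of 9 intermediate filament genes outside neurofilaments, VIM and LMNA rose and KRT14 fell. The KRT14 groups overlap (limma adjusted p = 0.134), and the Tuxedo table did not call LMNA (q = 0.108). VIM, the vimentin gene of mesenchymal cells, had an authors' mean of 30572 normalized counts in MCF10AF1F2 and 8337 in MCF10AmCherry. Rises and falls in these lists are the authors' deposited calls at 0.05. For comparison, the median log2 fold change of all genes with an adjusted p was -0.04, and no set test was made.

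Most markers that define neurons were at or near 0. Marker calls are the authors' deposited calls, which over all genes with an adjusted p were 11.6% higher and 12.0% lower. Of 13 neuronal markers 10 had a mean under 10 in both lines and 7 had 0 reads, ELAVL3, ELAVL4, GAD2, NEUROD1, NEUROD6, SLC17A6 and SLC32A1, and none was called in either direction. Their summed level was 86.1 to 178 normalized counts in the MCF10AF1F2 libraries and 176 to 333 in the MCF10AmCherry libraries, most of it from ELAVL2. Of 10 glial markers, OLIG1, OLIG2 and S100B were at 0, and of 3 tested 1 was called higher and 1, MBP, lower, with sums of 339 to 528 in MCF10AF1F2 and 1079 to 1266 in MCF10AmCherry. Of 7 neuroendocrine markers, INSM1 was among those at 0 and PCSK1 rose, with sums of 215 to 401 in MCF10AF1F2 and 135 to 250 in MCF10AmCherry. Of 10 mammary epithelial markers 6 fell, with summed authors' means of 80909 in MCF10AF1F2 and 123189 in MCF10AmCherry. CDH1, the E-cadherin gene, had 78.9 ± 36.7 normalized counts in MCF10AF1F2 and 17575 ± 2685 in MCF10AmCherry, and EPCAM, an epithelial adhesion gene, 81.0 ± 12.9 and 4607 ± 865 (SD, n = 3 each). The basal keratin KRT5 was not called, at an authors' mean of 67351 in MCF10AF1F2 and 48381 in MCF10AmCherry. Fibroblast markers gave 3 rises and 1 fall among 5 tested, with THY1 at 0. Their summed means were 42694 in MCF10AF1F2 and 4967 in MCF10AmCherry, most of it from DCN. Fibroblast markers recovered in both lines, which leave out DCN, summed to 206 to 253 in the MCF10AF1F2 libraries and 217 to 409 in MCF10AmCherry. Immune markers gave 3 falls among 3, with CD3E among those at 0 and sums of 174 to 254 in MCF10AF1F2 and 698 to 1896 in MCF10AmCherry. Endothelial markers gave no call among 2, with sums of 417 to 798 in MCF10AF1F2 and 271 to 939 in MCF10AmCherry. The part of such cells in the values above was not tested.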

How the data were processed

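Values came from 2 deposited tables of the same comparison, in which each line has 1 column for its 3 libraries. The submitters' processing notes list GRCh37, bcl2fastq, HISAT2 2.1.0, HTSeq 0.9.1 and DESeq2 1.18.1. In the first table the authors' signal columns are group means of size-factor-normalized counts, with the authors' log2 fold change, p-values and adjusted p-values. Folds given here are ratios of those means, and the deposited log2 fold changes of the set are smaller in size than the log2 of these ratios. In the Tuxedo table the authors' group values are FPKM, and the authors' q-values, test score and log2 fold changes stand beside them, per the file headers.

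The means have 15 significant digits, and single-read genes give each library's step, so a search over whole numbers returned the reads per library. A single solution was found for 99.5% of MCF10AF1F2 means above 0 and 99.6% of MCF10AmCherry means above 0, all means under 20000. Of 1000 altered means per line, 0 had a solution in MCF10AF1F2 and 1 in MCF10AmCherry. The altered means left out the highest values searched, so this check does not cover means such as that of FLOT1 in MCF10AF1F2. Size factors recomputed from the reads differed by at most 0.0656%, and 172 genes have no recovered reads in at least 1 line. Unsolved means held 23.2% of MCF10AF1F2 and 23.9% of MCF10AmCherry normalized counts. Recovered libraries carry no replicate numbers.

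The authors' deposited adjusted p under 0.05 is the call used. Limma 3.58.1 (R 4.3.3; trend, robust, Benjamini-Hochberg) was fitted on log2(normalized count + 1) over 15839 genes whose reads were recovered and whose mean over the 6 libraries reached 10. No count test was run, since the deposited columns are means. Alternatives were the Tuxedo table, other pseudocounts, filters and scaling, and leaving out libraries. Members and lists were chosen with earlier results of these data known. Genes with a mean of at least 10 in a line are given per library, and from each list at most the 2 largest rises and falls. Single values of some marker genes are not reported here. Exon overlaps used GENCODE 29, and promoters RefSeq. Python 3.11.15, numba 0.67.0 and matplotlib 3.10.9 were used.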

Additional observations from a re-analysis of the deposited data

How the results depend on the processing

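Of the 31 genes, 4 were called higher in MCF10AF1F2 and 2 lower in the authors' table of means. The Tuxedo table called 4 and 3 among 13, and limma 5 and 2 among 17. At a mean of at least 100 limma called 3 higher and 1 lower among 9. Leaving out 1 library at a time moved the limma counts between 2 and 7 higher and between 2 and 3 lower. With 2 libraries in that line, 2 were higher and 2 lower without library 1 or library 2 of MCF10AF1F2. In those fits 6.19% and 7.06% of all genes were called. Without library 3 of MCF10AmCherry, 7 were higher and 3 lower, when 40.1% of all genes were called, against 23.2% with every library. The cause was not tested. In the lists, the Tuxedo table called 5 rises among 21 microtubule genes and 1 fall among 12 growth cone genes. It called 0 rises and 7 falls among 32 vesicle genes, and 0 rises and 2 falls among 14 adhesion genes. Among 9 calmodulin kinases it called 0 rises. Of all genes it tested, 6.93% were called higher and 10.0% lower. Limma called 7 falls among 39 vesicle genes, 0 rises among 9 calmodulin kinases, and 1 rise and 0 falls among 6 intermediate filament genes. Of all genes it fitted, 12.1% were called higher and 11.1% lower. Without library 3 of both lines limma called 12 rises among 21 microtubule genes, 4 falls among 14 adhesion genes and 4 rises among 6 intermediate filament genes. In that setting 23.6% of all genes were called higher and 20.5% lower, so nothing is read from these counts. For the 16 genes above the count minimum with an adjusted p in the table of means, 195 alternative values stayed on their side of the threshold. Of the rest, 9 lost the call, 7 gained one and 1, not called, moved by more than the spread between libraries. No called gene changed sign and no alternative that passed had the opposite sign. Some alternatives of MAPT, DPYSL3 and DLG4, none of them called, lay on the other side of 0. MAP2 has no adjusted p there, and 8 of its 14 alternatives passed. No paired analysis was possible because the recovered libraries cannot be matched to the replicate numbers of the labels. For genes with a few reads per library, depth limits which differences can be detected.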

Other observations

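Beside the genes of the set, paralogs carried most of the transcripts of several families in both lines. KIF5B, the ubiquitous kinesin 1 heavy chain, held 99.8% of the summed authors' FPKM of 3 kinesin 1 genes in MCF10AF1F2 and 99.5% in MCF10AmCherry. TUBB, the common beta-tubulin, held 64.4% of 7 beta-tubulin genes in MCF10AF1F2 and 60.5% in MCF10AmCherry, and TUBB3 1.65% and 2.06%. Neuroligins and collapsin response mediators differed. NLGN2, itself a gene of the set, held 87.8% of the neuroligin FPKM in MCF10AF1F2 and 91.5% in MCF10AmCherry. DPYSL2, also of the set, held 76.6% and 57.7% of its family in the same order. NLGN3 had 0.339 FPKM in MCF10AF1F2 and 1.05 in MCF10AmCherry, with a q of 0.00147 in the authors' Tuxedo table.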
